A study of Equus caballus with 12 samples.

Results

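The genes described here encode redox, detoxification and lipid-oxidising enzymes. They were chosen by symbol alone, as the rows of the authors' table of changed genes whose name begins with the prefix of one of a fixed set of enzyme families (aldehyde and alcohol dehydrogenases, aldo-keto reductases, cytochromes P450, glutathione transferases, monoamine and flavin oxidases, short-chain dehydrogenases, quinone reductases, sulfo- and glucuronosyltransferases, thioredoxin and peroxide enzymes, acyl-CoA enzymes, metallothioneins and their relatives). The rule matched 19 of the 1341 listed genes, and it was chosen with earlier results of these data known. The table holds a gene only if the authors called it changed, so each of the 19 had already passed a test of the contrast described below, and enzyme genes outside it are not analysed here. Of the listed genes, 208 carry an Ensembl identifier without a symbol and could not be matched.

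Mesenchymal stem cells (MSCs), stromal cells of bone marrow that adhere to plastic and can turn into bone, cartilage or fat cells, came from 6 horses. For 72 hours a culture of each horse was either dual licensed, with recombinant human cytokines in the medium (IL-1β at 2 ng/ml and TGF-β2 at 1 ng/ml), or naive, in the medium without them. All cultures were in low glucose DMEM with 10% fetal bovine serum and antibiotics. One RNA-seq library per culture gave 6 licensed and 6 naive libraries, paired by horse. Breed, sex and age of the horses are not stated in the labels. The reads on listed genes numbered 2718393 to 3424328 per licensed library and 1672419 to 1844648 per naive library, and whole-library depth is unknown.

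Redox and detoxification enzymes handle reactive molecules in stages. Oxidases, reductases and cytochromes P450 change a functional group on a substrate, glutathione transferases join the product to glutathione, and glutathione itself is made from amino acids by an enzyme whose catalytic subunit is GCLC. Fatty acids enter metabolism as acyl-CoA thioesters made by acyl-CoA synthetases, after which they can be stored in lipids or shortened in mitochondria by dehydrogenation, hydration, oxidation and thiolysis. In stromal cells these enzymes also act on signalling lipids such as steroids, retinoids, vitamin D and prostaglandins.

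Most of the enzyme genes were lower in licensed than in naive MSCs. In the authors' deposited table, 15 of the 19 were listed as lower, against a background of 50% of all listed genes, and 4 were listed as higher, against 50%. The 4 higher genes were ACSL3, CYP27B1, CYP27C1 and MAOB. In bulk RNA, fewer cells of a type and less RNA per cell cannot be told apart. The 15 lower genes had deposited log2 fold changes of -1.99 to -1.01 with a median of -1.23, where the median of the 671 genes listed as lower in the authors' deposited table was -1.48. None of these 15 reached a 4-fold change in the authors' deposited table, where 185 of the 671 did, and MAOB was the 1 gene of the 19 that did (background 30.1% in either direction). The 4 higher genes had deposited log2 fold changes of 1.11 to 2.91 with a median of 1.45, against 1.60 over the 670 genes listed as higher in the authors' deposited table.

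**Figure D1:**
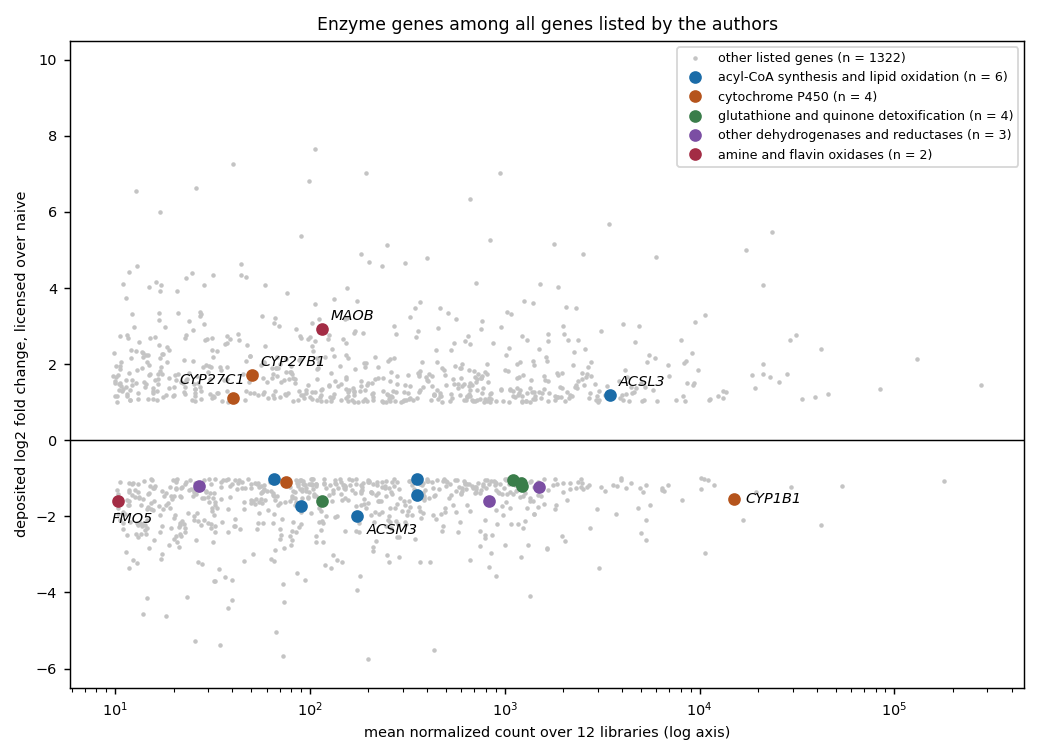
Deposited log2 fold change of licensed over naive (vertical axis) against the mean normalized count over 12 libraries (horizontal log axis), with 1 point per listed gene and the 19 enzyme genes coloured by function. The 15 lower enzyme genes lie between -1.99 and -1.01, and MAOB, at 2.91, is the gene of the 19 past a 4-fold change.

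Values per library are normalized counts, that is, reads divided by a size factor for the library, and are not corrected for gene length. Log2 fold changes with an SE come from limma on log2(normalized count + 1) over the 12 libraries with no horse term, and their p-values are adjusted over the 1341 genes by the Benjamini-Hochberg method. They are for licensed over naive and understate the change of genes with low values. Because the table was selected on this contrast, these p-values repeat a selection already made. A gene is counted as called at an adjusted p below 0.05 and a 2-fold change. By this rule limma called 4 of the 19 higher (background 48.4%) and 14 lower (background 46.8%), CYP7A1 being the gene left uncalled. With the horse as a block it also called 4 higher (background 48.8%) and 14 lower (background 47.8%). All 4 higher genes were higher in 6 of 6 horses, against a background of 94.3% of the 670 genes listed as higher. Of the 15 lower genes, 14 were lower in 6 of 6 horses, the exception being GCLC, a share that equals the background of 93.3% of the 671 genes listed as lower. In 12 of the 19 genes the licensed and naive libraries did not overlap at all, close to the background of 59.2%.

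**Figure D2:**
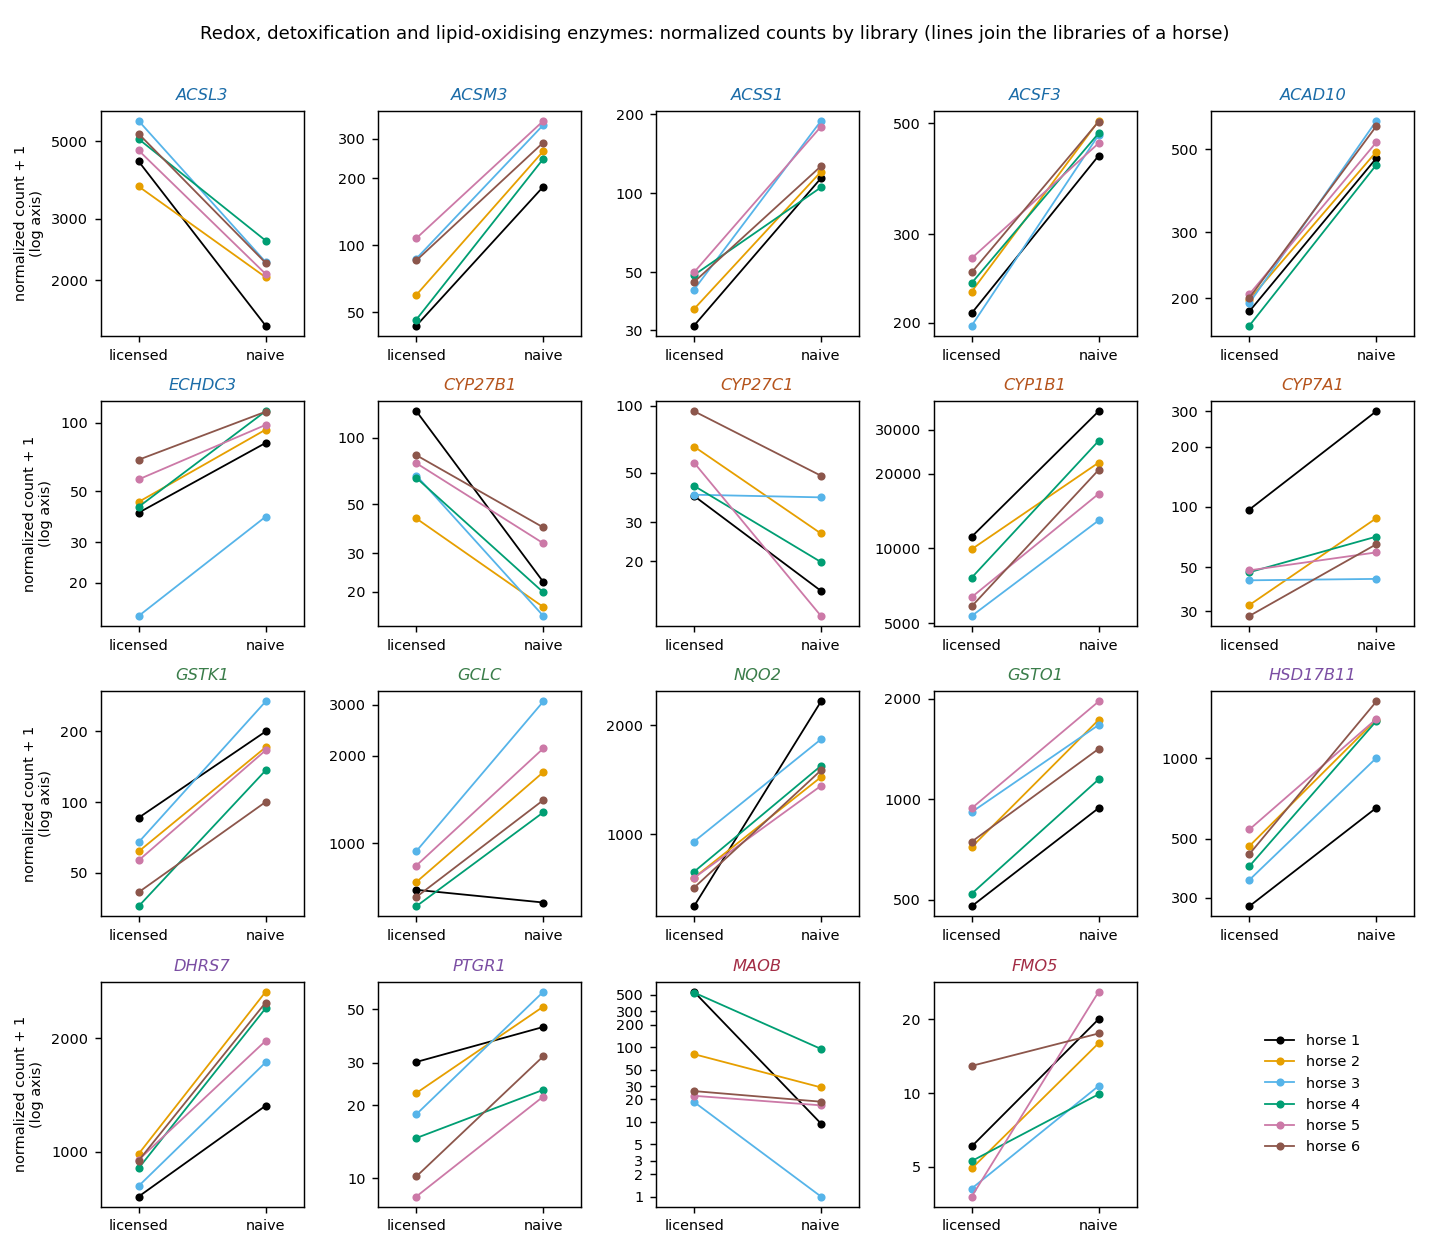
Normalized count + 1 (vertical log axis, scaled per gene) of each of the 19 enzyme genes in the 6 licensed and 6 naive libraries, with a line joining the libraries of a horse and gene names coloured by function. Lines slope up towards naive in all horses for 14 genes, and GCLC in horse 1 runs the other way.

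The acyl-CoA enzymes changed in both directions, with 1 of 6 genes higher and 5 lower in licensed cells. ACSL3, a long-chain acyl-CoA synthetase of the endoplasmic reticulum and lipid droplets, was at 3713, 4894 and 5724 normalized counts in licensed cells (lowest, median and highest of 6 libraries, as in all triplets that follow), against 1481, 2163 and 2597 in naive cells. Every licensed library was above every naive one, and the rise was 1.19 ± 0.16 on the log2 scale (SE, limma adjusted p = 1.65e-05). In the single horses it ranged from 0.864 in horse 2 to 1.56 in horse 1.

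The other acyl-CoA synthetase genes fell. ACSM3, a mitochondrial synthetase for medium-chain fatty acids, had 42.4, 71.5 and 106 normalized counts in licensed libraries, against 182, 276 and 361 in naive libraries. The groups did not overlap, and the log2 fold change of -2.02 ± 0.27 (limma adjusted p = 1.74e-05) was the steepest fall among the 19. ACSS1, which activates acetate in mitochondria, had 30.3, 43.4 and 49.0 normalized counts in licensed libraries, against 104, 123 and 188 in naive libraries. That difference, -1.70 ± 0.22 (limma adjusted p = 1.63e-05), also left the groups apart. ACSF3, the mitochondrial malonyl-CoA synthetase, had 196, 234 and 268 normalized counts in licensed libraries, against 430, 475 and 504 in naive libraries. Its log2 fold change of -1.03 ± 0.14 (limma adjusted p = 2.29e-05) sat at the 2-fold threshold and came to -0.985 without horse 3. ACSL3 was higher and ACSM3 lower in each of the 6 horses, with changes of ACSM3 between -2.40 and -1.75 on the log2 scale.

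The remaining acyl-CoA genes, related by family or domain to enzymes of later steps of fatty acid breakdown, were lower too. ACAD10, a member of the acyl-CoA dehydrogenase family, was the most even of the 19 across horses. It stood at 168, 195 and 204 normalized counts in licensed libraries, against 453, 506 and 594 in naive libraries, with changes of -1.61 to -1.31 in the single horses (log2 fold change -1.43 ± 0.14, limma adjusted p = 1.81e-06). ECHDC3, a protein with an enoyl-CoA hydratase domain, had 13.3, 42.9 and 67.8 normalized counts in licensed libraries, against 37.8, 94.4 and 111 in naive libraries. Its groups overlapped because horse 3 was lowest in both conditions, yet it was lower in 6 of 6 horses. The log2 fold change was -1.06 ± 0.38 (limma adjusted p = 0.0167), -0.987 without horse 3 and -0.998 without horse 4, where the adjusted p was 0.0509.

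A list of 75 genes of fatty acid activation, transport, mitochondrial and peroxisomal oxidation, ketone metabolism and their regulators had 10 genes in the table. Among them 8 were listed as lower and 2 as higher (background 50% each), and the 6 above are counted again. Of the other 4, the fatty acid carrier FABP4, the ketone-using enzyme OXCT1 and PDK4, a kinase that restrains pyruvate oxidation, fell. FABP4 had 8.18, 17.7 and 21.2 normalized counts in licensed libraries, against 20.3, 47.9 and 76.4 in naive libraries (log2 fold change -1.53 ± 0.34, limma adjusted p = 8.81e-04). OXCT1 changed by -1.04 ± 0.34 (limma adjusted p = 0.0105) and PDK4 by -1.27 ± 0.37 (limma adjusted p = 0.00532). ANGPTL4, a secreted lipase inhibitor, was listed as higher, with 2160, 3076 and 8219 normalized counts in licensed libraries, against 1019, 1894 and 3287 in naive libraries. Its limma log2 fold change of 0.985 ± 0.33 stayed below a 2-fold change. The carnitine palmitoyltransferases and the subunits of the mitochondrial trifunctional protein had no entry among the 1341 listed genes.

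Some markers of fat cells were listed along with these genes. Of 8 adipocyte markers, 3 were listed, FABP4 and CEBPA as lower and ADIPOQ as higher. Their summed level was 134 to 406 normalized counts in licensed libraries and 907 to 1857 in naive libraries. CEBPA, a transcription factor of fat cells, had 41.9, 159 and 264 normalized counts in licensed libraries, against 881, 1633 and 1794 in naive libraries. ADIPOQ, the hormone adiponectin, had 14.1, 95.2 and 123 in licensed libraries, against 1.07, 2.72 and 6.24 in naive libraries. None of these 3 was at 0 in a library, and their part in the lipid enzyme changes was not tested.

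The 4 enzyme genes of glutathione and quinone metabolism, GSTK1, GSTO1, NQO2 and GCLC, fell. GSTK1, a glutathione transferase of mitochondria and peroxisomes, was at 35.0, 58.0 and 84.8 normalized counts in licensed libraries, against 99.1, 168 and 267 in naive libraries. No licensed library reached the lowest naive one (log2 fold change -1.57 ± 0.28, limma adjusted p = 1.78e-04). GSTO1, a transferase of the omega class that also reduces thiols, had 477, 731 and 939 normalized counts in licensed libraries, against 940, 1543 and 1964 in naive libraries. The highest licensed library lay just below the lowest naive one, and the changes in single horses were close together, from -1.27 to -0.869. Over all horses GSTO1 changed by -1.04 ± 0.23 (limma adjusted p = 8.10e-04), and by -0.995 without horse 2, which is less than 2-fold.

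NQO2, a quinone reductase, had 632, 757 and 954 normalized counts in licensed libraries, against 1360, 1523 and 2327 in naive libraries. Horse 1 was highest in naive and lowest in licensed cells, and its change of -1.88 stood apart from the -1.08 to -0.845 of the other 5 horses. The log2 fold change of -1.11 ± 0.16 (limma adjusted p = 3.48e-05) was -0.951 without that horse (adjusted p = 3.88e-05). GCLC, the catalytic subunit of the enzyme that starts glutathione synthesis, had 605, 712 and 938 normalized counts in licensed libraries, against 623, 1581 and 3077 in naive libraries. The groups overlapped through horse 1, which was higher in licensed cells (690 normalized counts) than in naive cells (623), while the other 5 horses changed by -1.71 to -1.08. The log2 fold change was -1.06 ± 0.30 (limma adjusted p = 0.00499), -1.30 without horse 1 and -0.928 without horse 3.

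The naive library of horse 1 also stood apart in inflammatory genes outside the enzyme families. Its level of SOD2, the mitochondrial superoxide dismutase, was 38513 normalized counts, where the other naive libraries had 1651 to 2762, and its level of the cytokine gene IL6 was 609, where the others had 26.8 to 38.9. Whether this state has a part in the GCLC and NQO2 values of horse 1 was not tested. Among the 19 genes, horse 1 had the lowest naive library for 7 and the lowest licensed library for 7, while over all listed genes it had the lowest naive library for 34.5% and the lowest licensed library for 24.0%.

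Other genes of antioxidant defence moved in both directions. A list of 44 genes of the NRF2 pathway, the transcriptional response to electrophiles and oxidants, had 7 genes in the table. Among them 5 were lower and 2 higher (background 50% each), and GCLC and NQO2, both lower, are counted again. PIR, an iron-binding nuclear protein, had 64.6, 97.9 and 117 normalized counts in licensed libraries, against 274, 362 and 434 in naive libraries (log2 fold change -1.94 ± 0.21, limma adjusted p = 3.05e-06). The heme transporter SLC48A1 changed by -1.15 ± 0.18 (limma adjusted p = 6.42e-05). The 2 that rose handle heme and iron, to which SLC48A1 and PIR, both lower, are also linked. HMOX1, heme oxygenase, had 3828, 7344 and 11603 normalized counts in licensed libraries, against 2043, 2449 and 4812 in naive libraries, and was higher in 6 of 6 horses (1.35 ± 0.30, limma adjusted p = 9.86e-04). FTH1, the ferritin heavy chain, had 9232, 13204 and 36594 in licensed libraries, against 6038, 8142 and 8977 in naive libraries. Horse 1 was highest in both, and the log2 fold change was 1.01 ± 0.27 (limma adjusted p = 0.00359). In single horses it was 2.03 in horse 1 and 1.51 in horse 3, against 0.539 to 0.79 in the others.

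The thioredoxin and glutathione system, a list of 44 genes, had 3 in the table. Besides GCLC these were CHAC1, which degrades glutathione, and GGT5, a cell-surface gamma-glutamyl enzyme. CHAC1 rose, with 18.6, 25.3 and 36.8 normalized counts in licensed libraries, against 1.11, 7.58 and 12.9 in naive libraries (1.89 ± 0.43, limma adjusted p = 0.00104). GGT5 fell, with 0.916, 4.06 and 6.47 normalized counts in licensed libraries, against 15.6, 28.6 and 55.1 in naive libraries (-2.74 ± 0.42, limma adjusted p = 5.94e-05). The peroxiredoxins, glutathione peroxidases and thioredoxin reductases on that list had no entry among the listed genes. Of 23 glutathione transferase genes, GSTK1 and GSTO1 were the 2 in the table. NOX4, an oxidase that makes hydrogen peroxide, was the listed gene among 15 of the NADPH oxidase family, with 483, 593 and 774 normalized counts in licensed libraries, against 73.0, 131 and 262 in naive libraries (2.14 ± 0.27, limma adjusted p = 1.21e-05).

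Cytochrome P450 genes were split, with 2 listed as higher and 2 as lower. CYP1B1, which oxidises polycyclic aromatic compounds and oestrogens and is induced through the aryl hydrocarbon receptor, was at 5347, 6995 and 11140 normalized counts in licensed libraries, against 12956, 21412 and 35651 in naive libraries. The groups did not overlap, and horse 1 was highest and horse 3 lowest in both conditions. CYP1B1 fell by 1.52 on the log2 scale (SE 0.25, limma adjusted p = 1.05e-04), and by 1.16 to 1.83 in the single horses. AHRR, the repressor of that receptor and itself one of its target genes, had 9.16, 15.1 and 22.2 normalized counts in licensed libraries, against 79.2, 107 and 176 in naive libraries (-2.81 ± 0.27, limma adjusted p = 1.49e-06). The list that holds both, 45 genes of the P450 family and the receptor, had 5 in the table, 3 lower and 2 higher (background 50% each). Of these 5, 4 are P450 genes already counted. CYP1A1, TIPARP and the receptor gene AHR had no entry in the table.

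CYP7A1, which starts bile acid synthesis from cholesterol in the liver, had 27.5, 44.02 and 95.9 normalized counts in licensed libraries, against 42.6, 67.0 and 300 in naive libraries. Horse 1 was far above the other horses in both conditions, with 95.9 in licensed and 299.6 in naive cells, and the groups overlapped. The authors' deposited table lists it at a log2 fold change of -1.10 with an adjusted p of 0.0489. In limma its log2 fold change was -0.863 ± 0.44 (adjusted p = 0.0709) and -0.709 without horse 1, and horse 3 hardly differed between conditions (-0.0234). With the horse as a block the limma adjusted p was 0.00622 at the same fold change, still below a 2-fold change.

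Both P450 genes that rose belong to the mitochondrial CYP27 family. CYP27B1, which activates vitamin D, had 42.1, 71.1 and 131 normalized counts in licensed libraries, against 14.5, 20.0 and 38.2 in naive libraries. All licensed libraries were above all naive ones, with the largest change in horse 1 (2.58) and the smallest in horse 6 (1.09), and the log2 fold change was 1.68 ± 0.32 (limma adjusted p = 2.95e-04). CYP27C1, which desaturates retinol in human skin and in zebrafish, had 38.4, 48.6 and 93.5 normalized counts in licensed libraries, against 10.4, 22.3 and 47.5 in naive libraries. These groups overlapped, as the naive library of horse 6 was at 47.5, and horse 3 had nearly the same level in both conditions, with 38.9 in licensed and 37.8 in naive cells. The rise of CYP27C1 was 1.19 ± 0.38 on the log2 scale (limma adjusted p = 0.00905) and came to 0.970, below a 2-fold change, without horse 5.

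On a list of 35 retinoid genes, STRA6, the membrane receptor that takes up retinol, rose to 472, 663 and 711 normalized counts in licensed libraries, against 22.3, 89.9 and 150 in naive libraries (3.06 ± 0.37, limma adjusted p = 8.05e-06). RXRA, a nuclear receptor that pairs with the retinoic acid, vitamin D and PPAR receptors, was the other gene of that list in the table. It fell by 1.06 on the log2 scale (SE 0.13, limma adjusted p = 8.05e-06). CYP27C1 and DHRS7 are not on that list. Retinaldehyde dehydrogenases are aldehyde dehydrogenases, and none of the 19 genes on the aldehyde dehydrogenase list was in the table. The list of sulfation, glucuronidation and epoxide hydrolase genes likewise had 0 of 26. No metallothionein symbol was listed. The 2 listed genes among 18 of the metallothionein and zinc list were transporters that rose, SLC39A14 by 2.09 ± 0.27 and SLC30A1 by 1.07 ± 0.18 on the log2 scale (limma adjusted p = 1.45e-05 and 1.22e-04).

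The 3 other dehydrogenase and reductase genes fell. HSD17B11, a lipid droplet enzyme that oxidises steroids, was at 278, 414 and 540 normalized counts in licensed libraries, against 651, 1387 and 1633 in naive libraries. The groups did not overlap, although horse 1 was lowest in both (log2 fold change -1.57 ± 0.24, limma adjusted p = 4.86e-05). DHRS7, a reductase of steroids and retinoids, had 760, 926 and 987 normalized counts in licensed libraries, against 1324, 2185 and 2656 in naive libraries. Here too horse 1 was lowest in both conditions and showed the smallest change, -0.800, where the other 5 horses had -1.43 to -1.05 (log2 fold change -1.19 ± 0.18, limma adjusted p = 4.17e-05). On a list of 37 genes of steroid and sterol metabolism, HSD17B11 was the 1 in the table. That list does not hold CYP7A1, CYP1B1, CYP27B1 or DHRS7, whose substrates include sterols or steroids. On the list of 36 alcohol and carbonyl reducing enzymes, ADHFE1, a mitochondrial hydroxyacid-oxoacid transhydrogenase, was listed beside DHRS7 and fell by 1.59 on the log2 scale (SE 0.19, limma adjusted p = 6.42e-06).

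PTGR1, which reduces oxidised prostaglandins and acts on leukotriene B4, had 7.39, 15.5 and 29.3 normalized counts in licensed libraries, against 20.8, 36.1 and 58.1 in naive libraries. The groups overlapped, but it was lower in 6 of 6 horses, by -1.69 to -0.482 (log2 fold change -1.17 ± 0.38, limma adjusted p = 0.00932). HPGD, the dehydrogenase that acts before PTGR1 in prostaglandin breakdown, was the other listed gene among 11 on that list, with 9.20, 14.3 and 42.1 normalized counts in licensed libraries, against 292, 749 and 1596 in naive libraries.

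The amine and flavin oxidases, a list of 17 genes, had MAOB and FMO5 in the table. MAOB, a mitochondrial enzyme that oxidises amines such as phenylethylamine and dopamine, had 17.4, 52.0 and 547 normalized counts in licensed libraries, against 0, 16.6 and 93.3 in naive libraries. It was higher in 6 of 6 horses, but unevenly. Horse 1 had 547 normalized counts in licensed and 8.47 in naive cells, and horse 4 had 534 in licensed and 93.3 in naive cells. In horses 5 and 6 the changes were 0.424 and 0.472 on the log2 scale, and horse 3, with 17.4 in licensed cells, was at 0 in naive cells. The log2 fold change of MAOB was 2.49 ± 1.1 (limma adjusted p = 0.0458), with an adjusted p of 0.155 without horse 1 (log2 fold change 1.82), 0.0698 without horse 2 and 0.0547 without horse 3. With the horse as a block the limma adjusted p was 0.00471.

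FMO5, a flavin-containing monooxygenase that inserts oxygen next to carbonyl groups, had the lowest normalized counts of the 19, without correction for gene length. It had 2.77, 4.09 and 11.9 normalized counts in licensed libraries, against 8.89, 15.8 and 24.9 in naive libraries, so that its values rest on few reads. Horse 6 was highest among licensed libraries and made the groups overlap, and all 6 horses were lower in licensed cells (log2 fold change -1.49 ± 0.38, limma adjusted p = 0.00236).

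**Figure D3:**
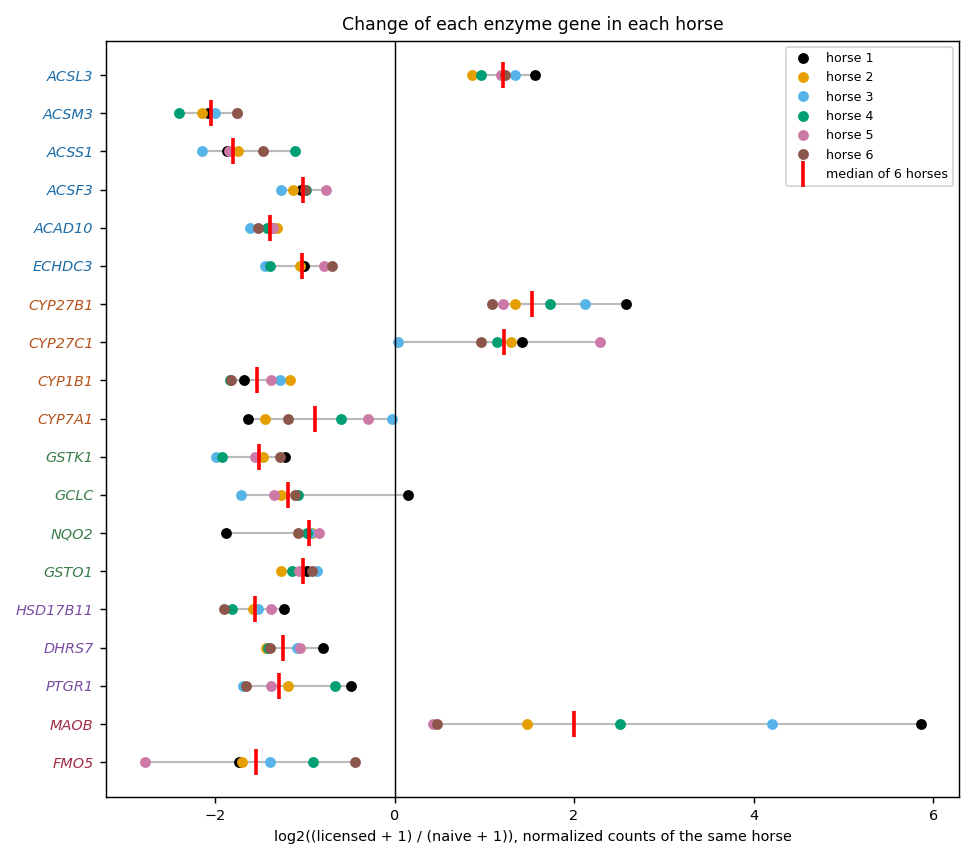
Log2 ratio of licensed to naive normalized counts (each + 1) within each horse (horizontal axis) for the 19 enzyme genes, with 1 point per horse and a red bar at the median of 6 horses. MAOB spreads from 0.424 to 5.86, ACAD10 from -1.61 to -1.31, and GCLC in horse 1 (0.145) is the point of a lower gene to the right of 0.

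The change was similar across horses for most of the genes. The SD of the log2 ratio over the 6 horses had a median of 0.303 for the 15 lower genes, where it was 0.492 over all genes listed as lower. The median mean level of these 15 was 353 normalized counts, against 129 for all genes listed as lower. The 4 higher genes had a median SD of 0.654, against 0.520 over all genes listed as higher. The largest spreads were those of MAOB (SD 2.17) and FMO5 (0.803), and the smallest those of ACAD10 (0.118) and GSTO1 (0.147).

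**Figure D4:**
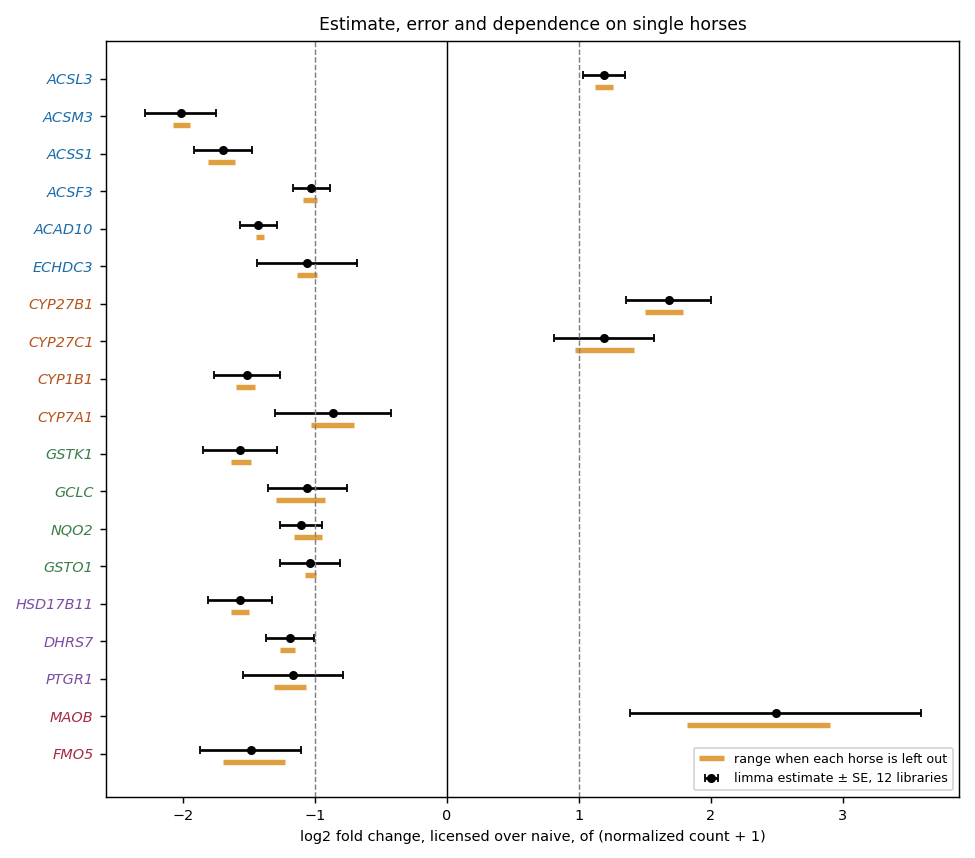
Limma log2 fold change of licensed over naive with its SE (black points and bars) and the range of the estimate when each horse is left out in turn (orange bars) for the 19 enzyme genes, with dashed lines at a 2-fold change. No range crosses 0, and that of MAOB is the widest, from 1.82 to 2.90.

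Marker genes of the labelled and of other cell types were checked in the same table. Of 10 MSC markers only THY1 was listed, as lower, with 298 to 4743 normalized counts in licensed libraries and 4625 to 31119 in naive libraries. None of 13 haematopoietic markers was listed. The listed endothelial marker, ERG, 1 of 7, was higher in licensed cells, with 188 to 313 normalized counts in licensed libraries and 57.2 to 146 in naive libraries. Of 8 pericyte and smooth muscle markers MCAM and MYH11 were listed as lower, with summed levels of 147 to 257 in licensed libraries and 419 to 884 in naive libraries. Outside these 8, the smooth muscle genes CNN1 and MYOCD were listed as higher (deposited log2 fold changes 1.56 and 1.40). Markers that were not listed are not analysed here, so the presence of those cell types cannot be judged from this table, and the part of cell composition in the enzyme changes was not tested.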

How the data were processed

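Normalized counts of 6 licensed and 6 naive MSC libraries were analysed. Per the labels' protocols, libraries were made from polyA-selected RNA. The submitters' processing notes name Trimmomatic 0.36, STAR 2.5.2b, featureCounts from Subread 1.5.2, and DESeq2 with no version. Genome build, annotation and use of strand: not given in the sources used here. Reads of overlapping genes on opposite strands, or of near-identical paralogs, therefore cannot be told apart. The authors' deposited table gives a log2 fold change, a p-value and an adjusted p-value per gene, and 12 columns of signal, in which each library's read counts were scaled by its own size factor. Its smallest absolute log2 fold change is 1.001 and its largest adjusted p 0.0499.

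Reads were recovered by division by the step of each library (100% of values whole within 0.01 reads). DESeq2 1.42.0 on these reads without a horse term gave the deposited log2 fold changes (within 0.01 for 1341 of 1341 genes), and with a horse term 1092 genes differed by more. The main test was limma 3.58.1 (R 4.3.3, trend and robust empirical Bayes) on log2(normalized count + 1) over the whole table. Alternatives were edgeR 4.0.16, DESeq2, other pseudocounts, a filter and left-out horses. Limma with and without a horse block, edgeR under the deposited size factors, and DESeq2 were also run on simulated counts without horse differences. The other alternatives were not simulated. Libraries of the same horse deviated together (correlation 0.484 to 0.631 over listed genes, against -0.397 to 0.139 for different horses), and come from the same horse per the labels, which pairs them. Each gene was first centred over the horses of a condition, which by itself lowers the values between different horses. Without a horse term, p-values set the change against the spread of levels between horses. With the horse as a block, they set it against the spread of the change between horses. The enzyme genes, the 14 pathway lists and the 5 marker lists were chosen with earlier results of these data known. The rule for named genes took up to 5 enzyme genes per function that average at least 50 normalized counts in 1 condition. As 19 matched, all are given, PTGR1, FMO5 and a sixth acyl-CoA gene included, with up to 4 further genes of each list. SOD2 and IL6 were chosen after their values were seen. No reference genome was used, so no sequences or coordinates are printed.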

Additional observations from a re-analysis of the deposited data

Results flagged for a closer look

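Dixon's test at the 95% level was run on 57 groups of 6 values (licensed, naive and ratio for 19 genes). In 6 groups a library or horse stood far from the other 5. For independent, normally distributed values, chance flags about 1 in 20. The counts were tested without logs and each ratio reuses both of its counts, so that rate is only a rough guide. Horse 1 accounted for 4 of the 6 flagged groups. CYP7A1 in horse 1 was at 95.9 normalized counts in licensed cells, against 27.5 to 47.1 in the other licensed libraries, and at 299.6 in naive cells, where the other naive libraries had 42.6 to 86.7. The log2 ratio of NQO2 was -1.88 in horse 1 and -1.08 to -0.845 in the other horses. For GCLC it was 0.145 in horse 1 and -1.71 to -1.08 in the others. MAOB in the naive library of horse 4 was at 93.3 normalized counts, where the others had 0 to 27.8. FMO5 in the licensed library of horse 6 was at 11.9 normalized counts, against 2.77 to 5.05 in the other licensed libraries.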

How the results depend on the processing

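No enzyme gene changed direction in any alternative tried. The alternatives refitted the libraries on which the genes had been selected, so a reversal was unlikely from the start. Over 285 combinations of gene and setting, 263 kept the limma call, 19 lost it and 3 gained it. The 3 gained were CYP7A1, which passed with edgeR under the deposited size factors (adjusted p = 0.0425), edgeR under TMM (0.0182) and DESeq2 (0.0258) on recovered reads. The number called higher, 4, was 2 with a pseudocount of 8 (MAOB and CYP27C1 lost) and 3 to 4 with each horse left out. With edgeR under TMM scaling it was 2 (ACSL3 and CYP27C1 lost). That scaling moved the median of all listed genes by -0.242 on the log2 scale. Its factors came from the listed genes alone, all selected as changed, so it had no unchanged genes to rest on. The number called lower, 14, was 11 to 14 with each horse left out, 11 with a pseudocount of 8 (PTGR1, ECHDC3 and FMO5 lost), and 15 with edgeR, or DESeq2 without a horse term, on recovered reads. Requiring at least 1.5-fold in every horse, an alternative chosen after seeing the data, left 2 of 4 genes higher and 11 of 14 lower. The share of all listed genes that pass this was not computed, so these counts have no background. Without horse 1, whose licensed library has a step close to 1, edgeR called 3 higher and 13 lower (also chosen after seeing the data). The median log2 fold change on the limma scale, 1.43 for the higher and -1.19 for the lower genes, was 1.32 to 1.51 and -1.31 to -1.15 with each horse left out. With the horse as a replicate block limma and DESeq2 each called 4 higher and 14 lower, and the pairing changed no limma call among the 19. The cause of the differences between settings was not tested. Reads on few-count genes such as FMO5 and PTGR1 limit their precision.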
